A study of Mus musculus with 6 samples.

Results

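The SLC25 family holds the mitochondrial carriers, proteins of the inner mitochondrial membrane that each move a small set of solutes between cytosol and matrix. Their genes were taken here as every row of the deposited table whose symbol is Slc25a followed by a number and whose counts total 10 or more over the 6 libraries. This gave 42 of 21899 genes. Carriers of the family under other symbols, such as Ucp2, are not among these members, and the family below means the members alone. Of the 47 rows with such a symbol, Slc25a2, Slc25a41 and Slc25a54 had 0 counts in all libraries, and Slc25a18 and Slc25a31 had 4 counts each. Just inside the limit were Slc25a53 with 20 counts, Slc25a43 with 25 and Slc25a27 with 35. These 3 members did not pass the filter on low counts, which left 39 tested members.

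The tested libraries were 3 from livers of wild-type C57BL6J mice on a methionine- and choline-deficient diet (MCD), set against 3 from wild-type C57BL6J mice on a methionine- and choline-sufficient diet (MCS). Both diets had been given for 6 weeks, and liver polyA RNA was sequenced. The MCD diet is used as a mouse model of steatohepatitis, and the labels give neither the sex nor the age of the mice, nor say that each library came from a separate animal. All p-values here thus rest on differences among these libraries, and part of that spread could be technical.

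Mitochondrial carriers share a fold of repeated membrane-spanning helices and mostly work as exchangers. They feed the matrix with ADP, phosphate, acylcarnitines and amino acids, and they export ATP, citrate and other intermediates. In hepatocytes they connect the matrix steps of the urea cycle, fatty acid oxidation, gluconeogenesis and lipid synthesis with the steps in the cytosol. In the deposited annotation all 42 members carried the term mitochondrion and 37 the term mitochondrial inner membrane. The exceptions by known biology include Slc25a17, a carrier of the peroxisomal membrane, and Slc25a46, a protein of the outer mitochondrial membrane.

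Total counts were 18443357, 21285045 and 20440745 in MCD replicates 1 to 3 and 21322771, 16615469 and 20783004 in MCS replicates 1 to 3. TMM factors, which scale each library so that most genes show no change, were 1.04 to 1.41 in the MCD libraries and 0.797 to 0.873 in the MCS libraries. This scaling matters for the whole account: with library size alone the median log2 fold change of all 12599 tested genes was 0.57, against 0.01 with TMM. Summed hepatocyte markers were 83105, 105097 and 61651 CPM in MCD replicates 1 to 3 and 103009, 105512 and 131353 CPM in MCS replicates 1 to 3, and 4 of the 12 were called lower. Alb was the largest part of these sums, at a mean of 57706 CPM in MCD and 59229 CPM in MCS livers. It was not called (edgeR adjusted p = 0.951). Summed macrophage markers were 2107, 1458 and 3746 CPM in the MCD libraries and 261 to 292 CPM in the MCS libraries, with 12 of 12 called higher. Kupffer cell markers were mixed: of 8, C1qa, C1qb and C1qc were called higher and Clec4f and Timd4 lower. They summed to 575, 697 and 938 CPM in MCD and 440, 505 and 559 CPM in MCS replicates 1 to 3. Sinusoidal endothelial marker sums were highest in replicate 3 of both diets, at 519 CPM for MCD and 642 CPM for MCS, against 92.9 to 219 CPM in the others.

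Of the 39 tested members, 15 fell and 3 rose on the MCD diet at an adjusted p under 0.05, and 21 were not called. The 3 that rose were Slc25a24, Slc25a4 and Slc25a30. The deepest falls were those of Slc25a23, Slc25a25 and Slc25a48. In percent, 38.5% of tested members were called lower, where 9.97% of all tested genes were, and 7.69% were called higher, where 14.8% of all tested genes were. The median log2 fold change was −0.45 over the members and 0.01 over all genes. The edgeR quasi-likelihood test was run on TMM-scaled counts and adjusted over all 12599 genes by Benjamini-Hochberg. Fold changes are MCD over MCS ± SE (n = 3 libraries per diet).

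The split between falls and rises depends on the scaling. With library size alone 3 members were called lower and 7 higher, where 2.76% of all genes were called lower and 40.4% higher. With limma on log2(TPM + 1), 2 members were lower and 8 higher, where 2.13% of all genes were lower and 42.9% higher. Negative fold changes numbered 32 of 39 members with TMM, 17 with library size alone and 14 on either TPM scale. A change of scaling moves all genes by nearly the same amount, so the number of members under the median of all genes (32 with TMM, 33 with library size alone) is no separate evidence. The number of calls also changed when 1 library was left out, among members and among all genes. The median log2 fold change of the members moved less. It ranged from −0.56 without MCD replicate 2 to −0.30 without MCD replicate 3, against −0.45 with all libraries. Without MCD replicate 1, 3 members were lower and 1 higher, where 3.35% of all genes were lower and 8.12% higher. Without MCD replicate 2, 18 members were lower and 4 higher, where 15.9% of all genes were lower and 18.2% higher. Without MCD replicate 3, 11 members were lower and 3 higher, where 8.01% of all genes were lower and 11.7% higher. Without MCS replicate 1, 3 members were lower and 2 higher, where 3.33% of all genes were lower and 7.27% higher. Without MCS replicate 2, 3 members were lower and 1 higher, where 3.05% of all genes were lower and 7.22% higher. Without MCS replicate 3, 12 members were lower and 3 higher, where 6.95% of all genes were lower and 11% higher.

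Size factors of the DESeq2 type gave 15 members lower and 3 higher, against 10.4% and 14.5% of all genes. Upper-quartile factors gave 14 members lower and 3 higher, against 9.2% and 15.7% of all genes. The DESeq2 Wald test gave 16 members lower and 4 higher, against 13.1% and 16.9% of all genes. The limma-voom fit gave 15 members lower and 2 higher, against 9.48% and 11.6% of all genes. The log2(TPM + 0.1) scale gave 2 members lower and 9 higher, against 2.24% and 45.2% of all genes. Testing without a count filter gave 15 members lower and 3 higher, against 7.79% and 11.4% of all genes. A minimum count of 50 gave 14 members lower and 3 higher, against 10.6% and 14.9% of all genes. The fit of 2 against 2 libraries without replicate 3 of each diet gave 11 members lower and 4 higher, against 12.2% and 14.6% of all genes. A threshold of 0.01 gave 2 members lower and 1 higher, against 2.41% and 5.98% of all genes.

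**Figure D1:**
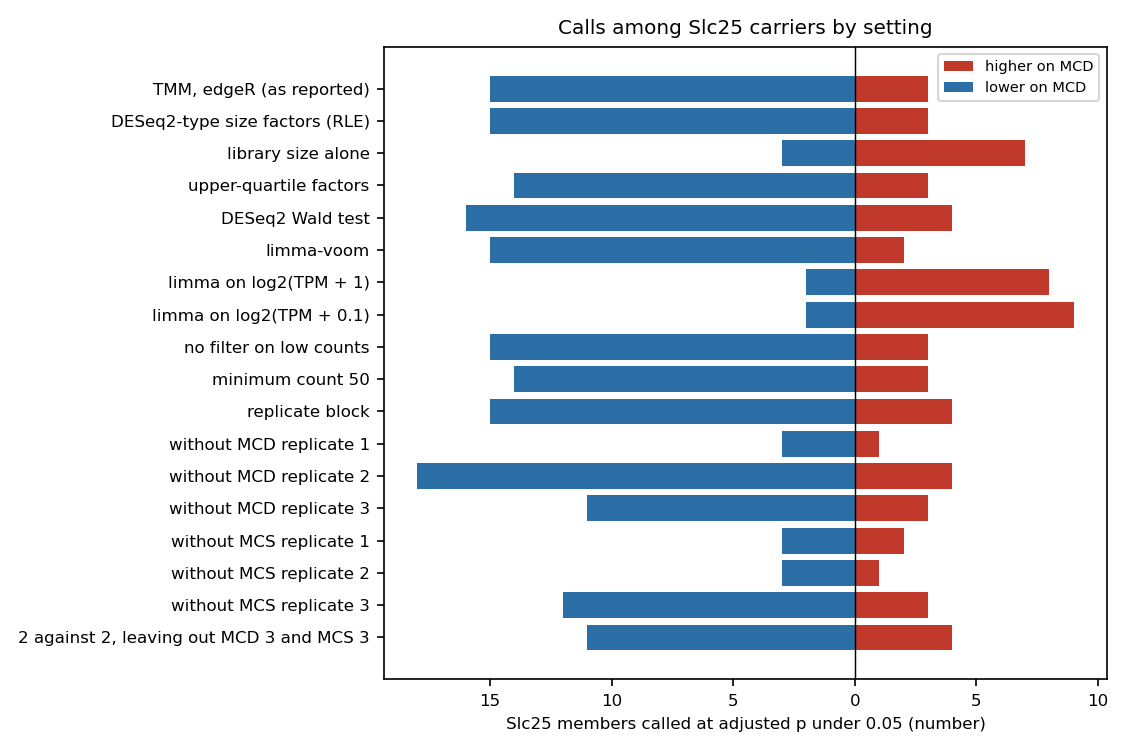
Number of Slc25 members called at adjusted p under 0.05 (horizontal axis, lower on MCD to the left of 0 and higher to the right) under each setting (rows). TMM with edgeR gives 15 lower and 3 higher, while library size alone gives 3 lower and 7 higher.

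Slc25a24, Slc25a4, Slc25a30, Slc25a23 and Slc25a48 kept their call and direction with TMM, with library size alone and on both TPM scales tried. Their promoters are shown for that reason, as the start regions of the 5 genes whose call did not rest on the scaling. Sequences are from RefSeq (GRCm38.p6), matched by symbol, and run from 250 bases before to 50 bases after the first listed start in the direction of the gene. Capitals mark the CCAAT box.
Slc25a24: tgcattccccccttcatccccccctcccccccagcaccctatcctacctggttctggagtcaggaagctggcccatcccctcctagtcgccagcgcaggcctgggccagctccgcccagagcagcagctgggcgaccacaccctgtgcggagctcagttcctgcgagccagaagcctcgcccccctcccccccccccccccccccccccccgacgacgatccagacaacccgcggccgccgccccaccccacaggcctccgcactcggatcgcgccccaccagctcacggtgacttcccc
Slc25a4: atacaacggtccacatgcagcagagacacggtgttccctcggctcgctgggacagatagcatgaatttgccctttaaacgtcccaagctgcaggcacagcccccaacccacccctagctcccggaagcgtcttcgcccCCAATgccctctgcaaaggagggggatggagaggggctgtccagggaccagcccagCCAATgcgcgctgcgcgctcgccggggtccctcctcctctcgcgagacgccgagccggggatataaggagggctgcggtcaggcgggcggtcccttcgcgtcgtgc
Slc25a30: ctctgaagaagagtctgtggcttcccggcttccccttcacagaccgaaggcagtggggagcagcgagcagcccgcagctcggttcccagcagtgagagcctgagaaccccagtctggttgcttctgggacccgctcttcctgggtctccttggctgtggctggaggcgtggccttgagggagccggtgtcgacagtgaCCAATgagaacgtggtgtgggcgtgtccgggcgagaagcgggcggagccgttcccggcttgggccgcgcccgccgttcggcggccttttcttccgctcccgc
Slc25a23: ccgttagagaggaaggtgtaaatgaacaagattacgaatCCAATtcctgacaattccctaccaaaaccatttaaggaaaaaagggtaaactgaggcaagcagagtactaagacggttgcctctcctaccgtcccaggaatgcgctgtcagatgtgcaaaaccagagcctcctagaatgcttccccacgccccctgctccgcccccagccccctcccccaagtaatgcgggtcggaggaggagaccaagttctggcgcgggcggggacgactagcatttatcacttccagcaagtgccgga
Slc25a48: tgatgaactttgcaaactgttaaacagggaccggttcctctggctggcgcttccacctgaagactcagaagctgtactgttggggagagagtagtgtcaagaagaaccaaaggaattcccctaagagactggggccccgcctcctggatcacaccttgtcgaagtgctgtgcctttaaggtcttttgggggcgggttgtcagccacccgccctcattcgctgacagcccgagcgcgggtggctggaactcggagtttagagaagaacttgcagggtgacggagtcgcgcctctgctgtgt

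These windows lie at chr3:109122899-109123198 (plus strand) for Slc25a24, chr8:46211013-46211312 (minus strand) for Slc25a4, chr14:75786988-75787287 (minus strand) for Slc25a30, chr17:57059814-57060113 (minus strand) for Slc25a23 (1 of 2 listed windows) and chr13:56438105-56438404 (plus strand) for Slc25a48. Searched on both strands were NRF1 (its consensus site), AP-1 (TGANTCA), the cAMP response element (TGACGTCA), the E-box (CACGTG), the CCAAT box (CCAAT), the TATA box (TATAAA) and the nuclear receptor half-site (AGGTCA). In the 5 printed windows the CCAAT box was the only one of the 7 with a match. It began 112 and 56 bases before the start in Slc25a4, 52 before it in Slc25a30 and 211 before it in Slc25a23. Slc25a24 and Slc25a48 held none of the 7. Of 33 members with a listed window, 17 held a CCAAT box (51.5%), as did 37.9% of the windows of all 27025 genes. Windows with a TATA box numbered 0 of 33 among members and made up 14.2% of all. The E-box was in 5 members (15.2%, against 7.24% of all), the nuclear receptor half-site in 4 (12.1%, against 16.04%) and AP-1 in 2 (6.06%, against 7.93%). NRF1 and the cAMP response element were in 1 each, where 4.78% and 1.88% of all windows held them. Among members called lower, 7 of 13 with a window held a CCAAT box, and among those called higher 2 of 3 did.

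By level, the family was led by Slc25a47, a carrier found mainly in hepatocytes, and Slc25a5, the main ADP/ATP carrier of dividing and many adult cells. TPM, the deposited unit that accounts for transcript length, was used to rank genes. Slc25a47 averaged 934 ± 204 TPM in MCD and 697 ± 191 TPM in MCS livers (SD, n = 3 each), and Slc25a5 926 ± 67.6 TPM in MCD and 534 ± 145 TPM in MCS livers. Next came Slc25a39 with 656 ± 23.3 TPM in MCD and 504 ± 11.7 TPM in MCS livers. Slc25a3, the phosphate carrier, averaged 407 TPM in MCD (396 to 415) and 330 TPM in MCS livers (288 to 409). Slc25a10, the dicarboxylate carrier, averaged 285 ± 17.8 TPM in MCD and 264 ± 21.9 TPM in MCS livers. The first 2 overlapped in level within each diet, so their order is not resolved. These 5 genes held 71.4%, 68.9% and 69.4% of the family's summed TPM in MCD replicates 1 to 3 and 56.7%, 60.0% and 65.9% in MCS replicates 1 to 3.

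The summed family made up 4573, 4476 and 4726 TPM in MCD replicates 1 to 3 and 3521, 3733 and 4175 TPM in MCS replicates 1 to 3. The MCD libraries all lay above the MCS libraries on this scale. As a share of counts, the family held 0.446%, 0.461% and 0.462% in MCD and 0.415%, 0.432% and 0.468% in MCS libraries, and here the diets overlapped. Neither sum is on the TMM scale of the calls, so the sums and the calls cannot be compared directly. Over all tested genes, the median shift was 0.53 on the log2(TPM + 1) scale and 0.01 with TMM. None of the 5 most abundant members was called in either direction with TMM, and Slc25a20 is the highest-ranked member that was. With TMM, Slc25a47, Slc25a39, Slc25a3 and Slc25a10 were at −0.26, −0.27, −0.34 and −0.53 (log2), and Slc25a5 was at 0.16. In TPM, levels of the 39 tested members spanned 1.22 (Slc25a35) to 816 (Slc25a47) as means over all 6 libraries.

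**Figure D2:**
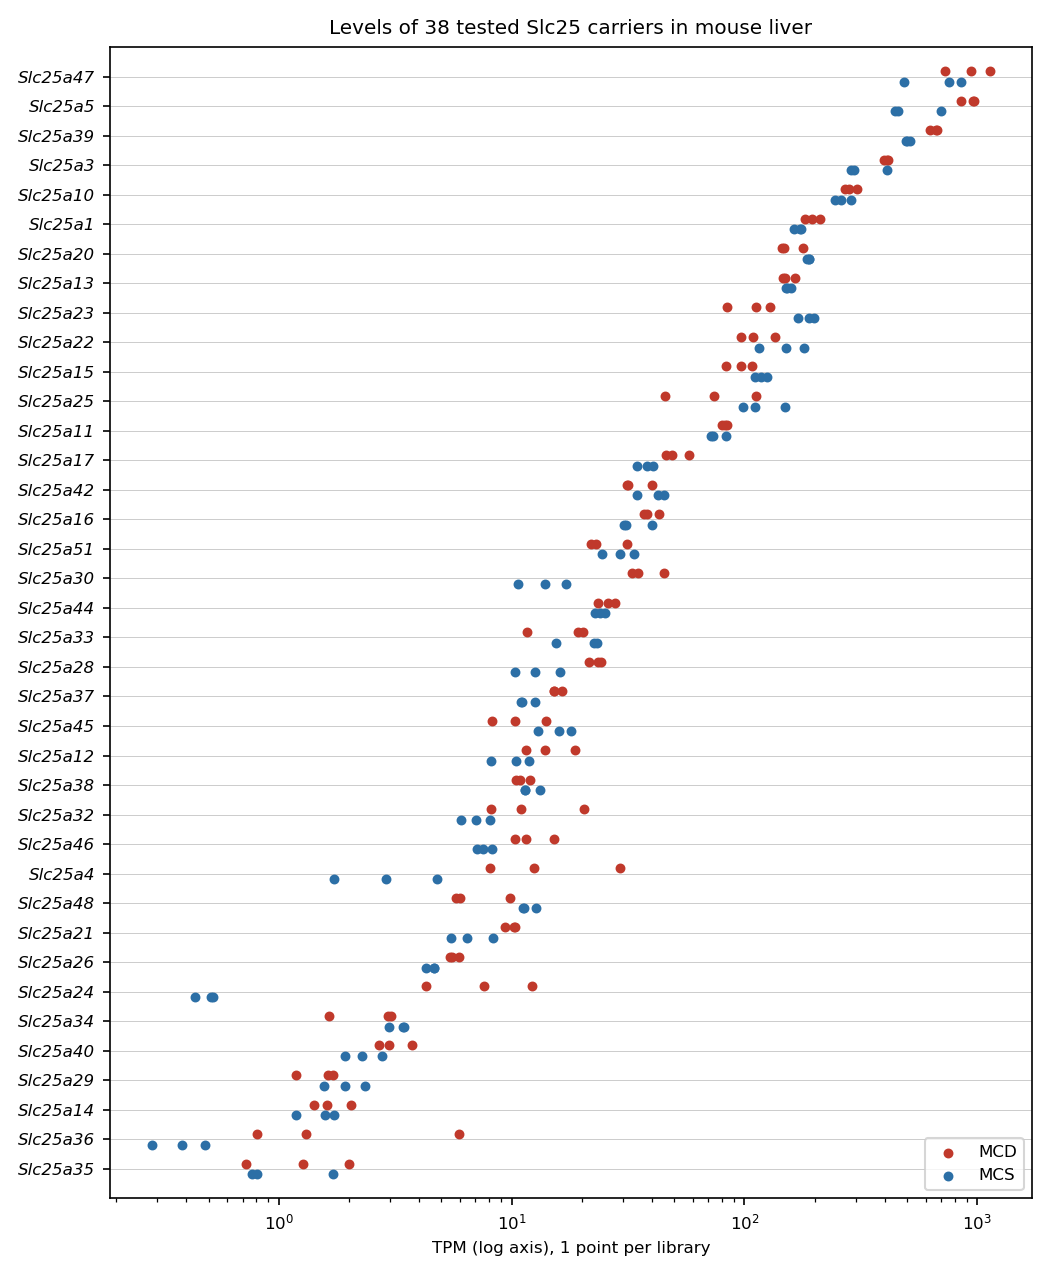
TPM (log axis) of 38 of the 39 tested Slc25 members, ranked by their mean over all libraries, with 1 point per library (MCD above MCS in each row). Slc25a47 and Slc25a5 lead, while Slc25a24 and Slc25a4 sit among the low members and show MCD points well above their MCS points.

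The carriers of adenine nucleotides and phosphate held the largest moves in both directions. The ATP-Mg/phosphate carriers Slc25a23, Slc25a24 and Slc25a25 are calcium-regulated exchangers that set the adenine nucleotide content of the matrix. Slc25a24 had 7.61, 4.31 and 12.3 TPM in MCD replicates 1 to 3, against 0.520, 0.435 and 0.510 TPM in MCS replicates 1 to 3. Every MCD library lay far above every MCS library. In CPM, here counts scaled to TMM-adjusted library size, it averaged 12.1 ± 4.06 in MCD and 1.22 ± 0.0953 in MCS livers. The log2 fold change was 3.30 ± 0.31 (edgeR adjusted p = 0.000446), the largest of the family. It was called in all 6 fits that left out 1 library, at 3.03 to 3.49.

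Slc25a23 moved the other way. It had 112, 128 and 84.3 TPM in MCD replicates 1 to 3, against 190, 171 and 198 TPM in MCS replicates 1 to 3, with no overlap. Its CPM averaged 163 ± 62.2 in MCD and 421 ± 17.3 in MCS livers (log2 fold change −1.37 ± 0.28, edgeR adjusted p = 0.00994). It too was called in all 6 fits without a library. Slc25a25 had 45.8, 74.2 and 112 TPM in MCD livers, against 149, 111 and 98.3 TPM in MCS livers, and the diets overlapped on this scale. On the TMM scale they did not, with 61.3, 119 and 125 CPM in MCD and 319, 247 and 199 CPM in MCS livers. Its log2 fold change was −1.33 ± 0.29 (edgeR adjusted p = 0.0135), with −0.76 under library size alone (adjusted p = 0.0726) and an adjusted p of 0.0569 without MCS replicate 1.

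A ratio of 2 genes within a library does not depend on scaling between libraries, so the isoforms were also set against each other. Slc25a24 made up 4.59%, 2.08% and 5.9% of the summed TPM of Slc25a23, Slc25a24 and Slc25a25 in MCD replicates 1 to 3, and 0.153%, 0.154% and 0.172% in MCS replicates 1 to 3. The sum of the 3 genes was 166, 207 and 208 TPM in MCD and 339, 283 and 297 TPM in MCS livers. The log2 ratio of Slc25a24 to Slc25a23 averaged −3.85 ± 1.06 in MCD and −8.58 ± 0.06 in MCS livers (SD, n = 3 each), a difference of 4.72. That of Slc25a24 to Slc25a25 averaged −3.29 ± 0.76 in MCD and −7.92 ± 0.29 in MCS livers, a difference of 4.63. For both ratios the diets did not overlap, and the exact two-sided permutation test gave p = 0.1, the smallest that 3 against 3 libraries allow (adjusted p = 0.18 over 9 pairs). In MCS replicates 1 to 3 these ratios and shares rest on only 23, 15 and 22 counts of Slc25a24. The MCD replicates had 267, 180 and 467.

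Macrophage marker sums and Slc25a24 took the same order among the MCD libraries, with replicate 3 highest and replicate 2 lowest, and so did Slc25a4 and the stellate cell marker sums, with 5 of 12 stellate markers called higher (1071, 469 and 2035 CPM in MCD, 323, 263 and 497 CPM in MCS replicates 1 to 3). Cholangiocyte markers, with 6 of 7 called higher, had that order too and summed to 36.2, 20.6 and 48.9 CPM in MCD and 8.86, 8.16 and 7.72 CPM in MCS replicates 1 to 3. So did neutrophil markers, with 2 of 5 called higher (10.8, 7.69 and 25.2 CPM in MCD, 4.43, 3.78 and 5.13 CPM in MCS replicates 1 to 3), and lymphocyte markers, with 2 of 10 called higher (21.8, 14.03 and 24.7 CPM in MCD, 8.86, 9.14 and 16.604 CPM in MCS replicates 1 to 3). Sinusoidal endothelial and erythroid sums, with 0 of 12 and 0 of 5 markers called higher and 1 erythroid marker lower, were likewise highest in replicate 3 and lowest in replicate 2 of the MCD group. Kupffer cell sums were highest in replicate 3 but lowest in replicate 1 of that group. The cell cycle list, with 11 of 12 markers called higher, summed to 128, 81.2 and 128 CPM in MCD and 37.4, 43.2 and 40.5 CPM in MCS replicates 1 to 3. Their part in the rise of Slc25a24 and Slc25a4 was not tested. In whole liver, a change in the number of cells of a type and a change in RNA per cell cannot be told apart, which holds for each result here.

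The ADP/ATP carriers exchange matrix ATP for cytosolic ADP. Slc25a4, the isoform of heart and skeletal muscle, had 12.4, 8.07 and 29.3 TPM in MCD replicates 1 to 3, against 1.73, 2.89 and 4.80 TPM in MCS replicates 1 to 3. All MCD libraries were higher. Slc25a4 rose by a log2 fold change of 1.66 ± 0.44 (edgeR adjusted p = 0.0285). It was at 1.79, 1.36 and 1.62 without MCD replicate 1, MCS replicate 1 and MCS replicate 2. In these fits it was not called (edgeR adjusted p up to 0.101), and limma-voom did not call it. Slc25a5 had 968, 963 and 848 TPM in MCD livers, against 444, 456 and 700 TPM in MCS livers, without overlap. In TMM-scaled CPM the diets overlapped (552, 657 and 406 in MCD, 408, 430 and 602 in MCS livers). The log2 fold change of Slc25a5 was 0.16 ± 0.25 (edgeR adjusted p = 0.660), and 0.68 with library size alone, where it was called (adjusted p = 0.0320). Slc25a4 took 1.27%, 0.831% and 3.33% of the pair's TPM in MCD and 0.389%, 0.631% and 0.680% in MCS livers. The log2 ratio of Slc25a5 to Slc25a4 averaged 6.01 ± 1.05 in MCD and 7.497 ± 0.44 in MCS livers, a difference of −1.49 without overlap (exact permutation p = 0.1, adjusted p = 0.18).

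**Figure D3:**
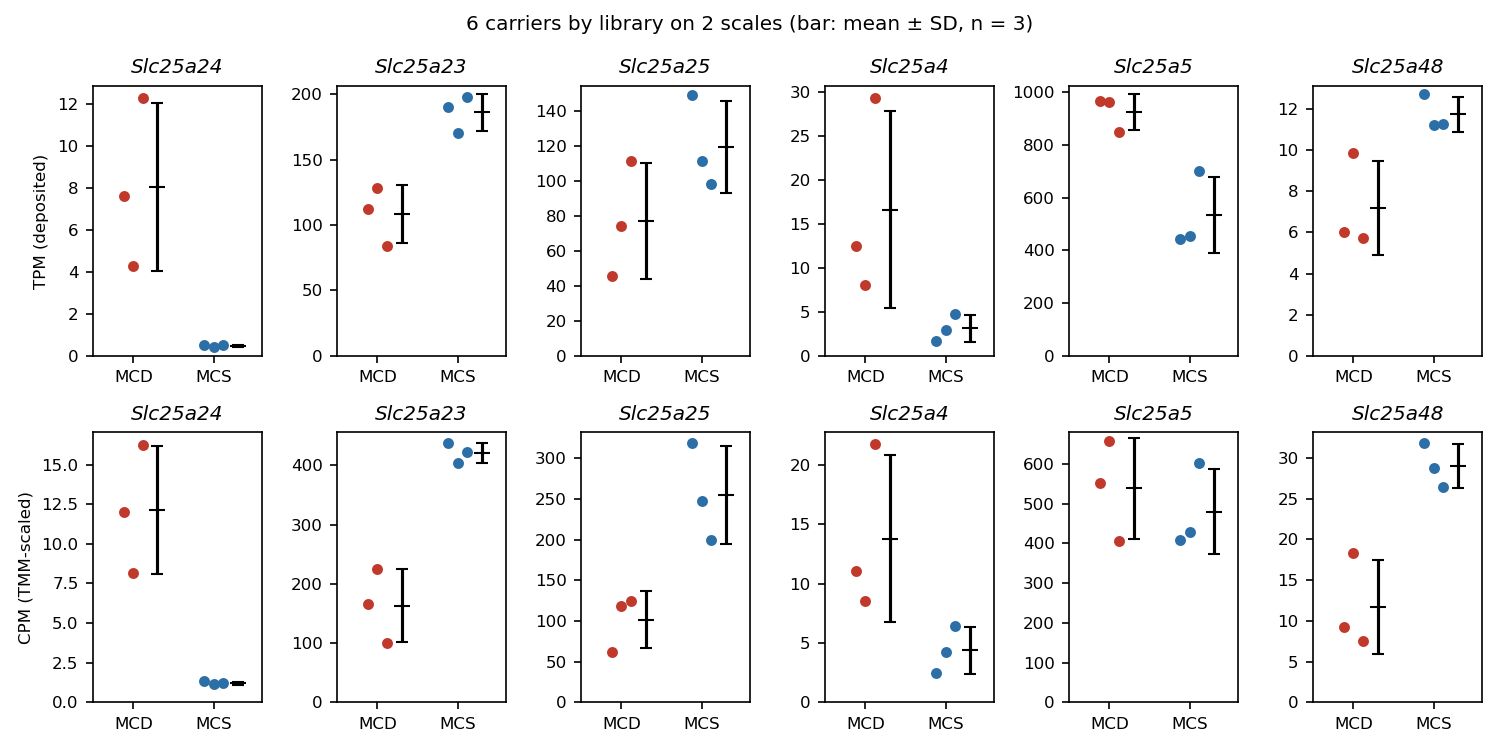
TPM as deposited (upper row) and CPM after TMM scaling (lower row) of 6 members, with 1 point per library and the mean ± SD (n = 3) beside them, MCD left of MCS. Slc25a24 and Slc25a4 are higher and Slc25a23 and Slc25a48 lower on MCD on both scales, while Slc25a5 is separated in TPM only and Slc25a25 in CPM only.

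Among carriers of amino acids, 5 of 7 tested members fell, where 9.97% of all tested genes did, 0 rose and the median log2 fold change was −0.88. These falls depend on the scaling: of the 5, Slc25a15 alone was called with library size alone, and none on either TPM scale. Slc25a22, which brings glutamate into the matrix, had 97.0, 109 and 135 TPM in MCD livers, against 151, 179 and 115 TPM in MCS livers, with overlap through MCS replicate 3. Its log2 fold change was −1.002 ± 0.21 (edgeR adjusted p = 0.0118), and −0.45 with library size alone (adjusted p = 0.0802). Slc25a15, the ornithine carrier of the urea cycle, had 83.4, 108 and 96.3 TPM in MCD livers, against 117, 125 and 111 TPM in MCS livers. The diets did not overlap, and the log2 fold change was −0.94 ± 0.22 (edgeR adjusted p = 0.0170). With library size alone it was −0.41 (adjusted p = 0.0499). Neither Slc25a22 nor Slc25a15 was called without MCD replicate 1, MCS replicate 1 or MCS replicate 2 (adjusted p up to 0.0597 and 0.0829).

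Slc25a13, or citrin, is the aspartate/glutamate carrier of liver, and it serves both the urea cycle and the malate-aspartate shuttle. It had 149, 147 and 165 TPM in MCD livers, against 152, 159 and 151 TPM in MCS livers, which overlap. On the TMM scale it had 211, 249 and 196 CPM in MCD livers, against 345, 371 and 322 CPM in MCS livers (log2 fold change −0.66 ± 0.17, edgeR adjusted p = 0.0256). Slc25a13 was not called with library size alone (−0.12, adjusted p = 0.412), on either TPM scale, or with TMM without MCD replicate 1, MCS replicate 1 or MCS replicate 2 (adjusted p up to 0.115). Its partner Slc25a12, the isoform of muscle and brain, was not called (−0.14 ± 0.19, edgeR adjusted p = 0.623). Slc25a12 took 7.16%, 8.68% and 10.2% of the pair's TPM in MCD and 5.12%, 6.97% and 6.47% in MCS livers, and their log2 ratio differed by 0.52 without overlap (exact permutation p = 0.1, adjusted p = 0.18).

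Slc25a38, a glycine carrier needed for haem synthesis, had 10.9, 12 and 10.5 TPM in MCD livers, against 11.5, 11.4 and 13.3 TPM in MCS livers. These overlap, while its CPM did not (log2 fold change −0.88 ± 0.22, edgeR adjusted p = 0.0229). Slc25a38 was at −0.37 with library size alone (adjusted p = 0.157) and at −0.10 on the log2(TPM + 1) scale (limma adjusted p = 0.594). Slc25a44, a carrier of branched-chain amino acids, fell by 0.56 on the log2 scale with TMM (edgeR adjusted p = 0.0244), yet its mean TPM was 25.8 in MCD and 24.0 in MCS livers, with a log2 fold change of 0.09 on the log2(TPM + 1) scale. Slc25a38 and Slc25a44 both lost their call without MCD replicate 1, MCS replicate 1 or MCS replicate 2, and Slc25a38 also without MCS replicate 3 (adjusted p up to 0.0864 and 0.105). Slc25a29, a carrier of basic amino acids with 26 to 60 counts per library, was at −0.998 ± 0.40 and was not called (edgeR adjusted p = 0.0968).

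Slc25a20 brings acylcarnitines into the matrix for beta-oxidation in exchange for carnitine. It had 148, 178 and 145 TPM in MCD livers, against 188, 185 and 189 TPM in MCS livers, and every MCD library was lower. In CPM it had 121, 174 and 100 in MCD livers, against 249, 251 and 233 in MCS livers. The log2 fold change was −0.89 ± 0.22 (edgeR adjusted p = 0.0194), and −0.37 with library size alone (adjusted p = 0.0559). It was not called without MCD replicate 1, MCS replicate 1 or MCS replicate 2 (adjusted p up to 0.0866). Of 17 other genes of the carnitine shuttle and beta-oxidation, 10 fell and 0 rose with TMM, with a median of −0.76. Of all tested genes 9.97% fell and 14.8% rose. With library size alone 3 of the list were lower and 1 higher, where 2.76% and 40.4% of all genes were. Crat, a carnitine acetyltransferase, and Eci1, an enoyl-CoA isomerase of beta-oxidation, fell by 1.03 and 0.95 on the log2 scale (edgeR adjusted p = 0.00334 and 0.00732), and both were called in all 6 fits without a library. On the log2(TPM + 1) scale Crat was called (limma adjusted p = 0.0198) and Eci1 was not (−0.29, limma adjusted p = 0.102). The list had 11 genes lower without MCD replicate 2, 2 without MCD replicate 1 or MCS replicate 2, 3 without MCS replicate 1 and 6 without MCS replicate 3. In these fits 15.9%, 3.35%, 3.05%, 3.33% and 6.95% of all genes were lower, in that order.

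Carriers of di- and tricarboxylates connect the citric acid cycle with the cytosol. Slc25a1 exports citrate, the carbon source for fatty acid synthesis, and Slc25a10 exchanges malate and succinate for phosphate. Slc25a11 exchanges oxoglutarate for malate, and Slc25a21 carries longer oxodicarboxylates. Only Slc25a11 was called among the 4, as lower, where 9.97% of all tested genes were called lower. Slc25a11 had 83.9, 82.9 and 80.5 TPM in MCD livers, against 73.0, 71.6 and 83.5 TPM in MCS livers. Its fold change turns with the scale, from −0.54 ± 0.17 on the TMM scale (edgeR adjusted p = 0.0418) to 0.12 on the log2(TPM + 1) scale, and of the 6 fits without a library it was called only in that without MCD replicate 2 (adjusted p up to 0.129). Slc25a10 had 282, 304 and 269 TPM in MCD livers, against 260, 245 and 288 TPM in MCS livers, and was not called (−0.53 ± 0.21, edgeR adjusted p = 0.0955). Slc25a1 was at −0.45 ± 0.20 (edgeR adjusted p = 0.125) and Slc25a21 at −0.06 ± 0.19 (edgeR adjusted p = 0.851). The log2 ratio of Slc25a1 to Slc25a10 averaged −0.55 ± 0.12 in MCD and −0.63 ± 0.17 in MCS livers, with overlap (exact permutation p = 0.6).

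**Figure D4:**
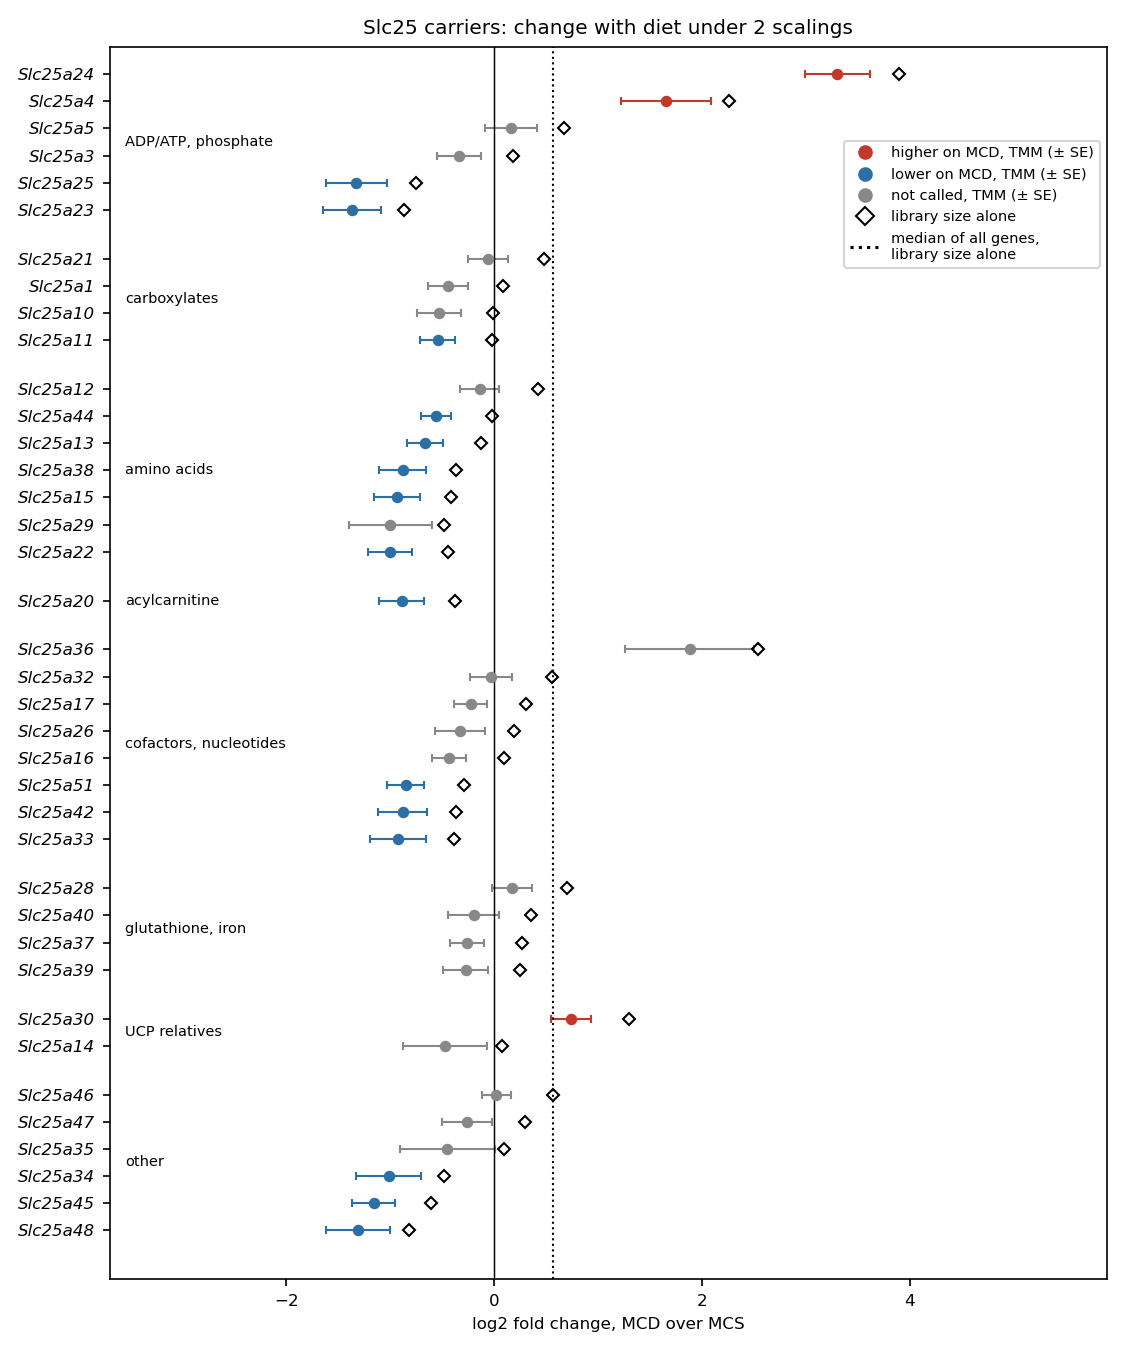
Log2 fold change of MCD over MCS (horizontal axis) for 38 of the 39 tested members grouped by cargo, as TMM-scaled edgeR estimates with SE (filled, red higher, blue lower, grey not called) and with library size alone (diamonds). The diamonds sit to the right of the filled points by about the shift of the median of all genes (dotted line, 0.57).

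Among carriers of cofactors and nucleotides 3 of 9 members fell and 0 rose, where 9.97% and 14.8% of all tested genes did. Slc25a42 carries coenzyme A, Slc25a51 brings NAD into the matrix, and Slc25a33 carries pyrimidine nucleotides. Slc25a51 had 29.0, 39.8 and 40.3 CPM in MCD livers, against 62.9, 78.1 and 55.9 CPM in MCS livers (log2 fold change −0.85 ± 0.18, edgeR adjusted p = 0.0118). In TPM it had 23.0, 21.9 and 31.3 in MCD livers, against 29.1, 33.5 and 24.4 in MCS livers, with overlap. Slc25a42 had 31.5, 40.2 and 31.3 TPM in MCD livers, against 45.2, 42.4 and 34.7 TPM in MCS livers (−0.88 ± 0.24, edgeR adjusted p = 0.0281). Slc25a33 had 11.7, 19.3 and 20.2 TPM in MCD livers, against 22.7, 23.2 and 15.6 TPM in MCS livers (−0.93 ± 0.27, edgeR adjusted p = 0.0379). None of these 3 was called with library size alone (adjusted p = 0.107 to 0.248). Slc25a42 and Slc25a33 were not called without MCD replicate 1, MCS replicate 1 or MCS replicate 2 nor without MCD replicate 3 (adjusted p up to 0.107 and 0.128), and Slc25a51 not without MCD replicate 1 or MCS replicate 2 (adjusted p up to 0.0525).

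Slc25a36, the other pyrimidine nucleotide carrier, had 2.47, 1.99 and 9.58 CPM in MCD livers, against 1.55, 0.907 and 1.32 CPM in MCS livers. All MCD libraries were higher, but replicate 3 carried most of the signal, with 275 counts against 55 and 44 in the other MCD libraries and 12 to 27 in the MCS libraries. Its log2 fold change was 1.88 ± 0.62 (edgeR adjusted p = 0.0551), and 0.81 without MCD replicate 3. Slc25a36 was called higher by the DESeq2 Wald test (adjusted p = 0.0135), with library size alone (0.0271), on the log2(TPM + 0.1) scale (0.0338) and without MCD replicate 2 (0.0128), but not by limma-voom (0.187) or on the log2(TPM + 1) scale (0.0644). Slc25a17, the peroxisomal member and the most abundant of this group, had 57.6, 46.0 and 49.1 TPM in MCD livers, against 40.7, 34.5 and 38.0 TPM in MCS livers. It was not called with TMM (−0.23 ± 0.16, edgeR adjusted p = 0.316), where its sign was opposite to that with library size alone (0.31) and on the log2(TPM + 1) scale (0.42, where it was called). Slc25a26, which brings S-adenosylmethionine into the matrix, was not called, with 5.64 ± 0.257 TPM in MCD and 4.52 ± 0.211 TPM in MCS livers (−0.33 ± 0.24, edgeR adjusted p = 0.343). Slc25a32, a carrier of folate and flavin nucleotides, was at −0.03 ± 0.20 (edgeR adjusted p = 0.937). Slc25a16 was at −0.44 ± 0.16 (edgeR adjusted p = 0.0803).

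None of the 4 glutathione and iron carriers was called with TMM (edgeR adjusted p = 0.266 to 0.585), and their median log2 fold change was −0.23. Slc25a39 and Slc25a40 bring glutathione into mitochondria. Slc25a39 had 664, 673 and 629 TPM in MCD livers, against 516, 493 and 501 TPM in MCS livers. In CPM it had 422, 526 and 333 in MCD livers, against 535, 523 and 491 in MCS livers. The direction thus depended on the scale, from −0.27 ± 0.21 with TMM to 0.38 on the log2(TPM + 1) scale, where it was called. Slc25a39 took 99.4% to 99.6% of the pair's TPM in both diets. The mitoferrins Slc25a37 and Slc25a28 bring iron into the matrix, and Slc25a37 is the form of erythroid cells. Slc25a37 took 43.3%, 39.4% and 38.6% of their summed TPM in MCD and 49.97%, 51.6% and 40.8% in MCS livers. Their log2 ratio differed by −0.41 with overlap (exact permutation p = 0.2). Erythroid markers, with 1 of 5 called lower, summed to 179, 130 and 315 CPM in MCD and 616, 410 and 760 CPM in MCS replicates 1 to 3, and their part in this ratio was not tested.

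Of 2 tested relatives of the uncoupling proteins 1 rose, where 14.8% of all tested genes did. Slc25a30, also called kidney mitochondrial carrier protein, had 34.7, 33.1 and 45.0 TPM in MCD livers, against 17.1, 13.9 and 10.7 TPM in MCS livers. Every MCD library was above every MCS library. Its CPM was 57.3, 65.3 and 60.7 in MCD and 45.4, 37.8 and 26.5 in MCS livers (log2 fold change 0.74 ± 0.19, edgeR adjusted p = 0.0241). It was not called without MCD replicate 1 or MCS replicate 2 (adjusted p up to 0.0832). Slc25a14 was at −0.47 ± 0.40 (edgeR adjusted p = 0.415), and Slc25a27 had 1, 7 and 9 counts in MCD and 5, 1 and 12 counts in MCS libraries and was not tested.

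The last group holds members with other or less settled cargo. Slc25a48 has been described as a mitochondrial choline transporter, and choline is one of the nutrients that the MCD diet lacks. Slc25a48 had 6.00, 9.84 and 5.75 TPM in MCD livers, against 12.7, 11.2 and 11.3 TPM in MCS livers. The diets did not overlap. In CPM it had 9.31, 18.3 and 7.49 in MCD livers, against 31.8, 28.8 and 26.4 in MCS livers (log2 fold change −1.31 ± 0.31, edgeR adjusted p = 0.0184). It fell with library size alone too (−0.82, adjusted p = 0.0290), but was not called without MCD replicate 1, MCS replicate 1 or MCS replicate 2 (adjusted p up to 0.0706).

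Slc25a45 had 8.22, 10.4 and 13.99 TPM in MCD livers, against 18.03, 15.9 and 12.9 TPM in MCS livers. The TPM values overlap through MCD replicate 3, but its CPM did not, with 7.55, 11.9 and 10.4 in MCD and 25.8, 23.1 and 17.9 in MCS livers (log2 fold change −1.16 ± 0.21, edgeR adjusted p = 0.00645). Slc25a45 was called in all 6 fits without a library, and had an adjusted p of 0.0538 with library size alone. Slc25a34 had 1.65, 2.96 and 3.04 TPM in MCD livers, against 2.97, 3.46 and 3.43 TPM in MCS livers (−1.02 ± 0.31, edgeR adjusted p = 0.0432). Its call was lost in 5 of the 6 fits that left out a library, all but that without MCD replicate 2 (adjusted p up to 0.136). Nor was Slc25a34 called with upper-quartile factors (adjusted p = 0.0516), a minimum count of 50 (0.0506), library size alone (−0.48, 0.240) or on the TPM scales (0.320 and 0.324). Slc25a47 had 940, 727 and 1135 TPM in MCD livers, against 483, 757 and 852 TPM in MCS livers, with overlap, and was not called (−0.26 ± 0.24, edgeR adjusted p = 0.458). Slc25a46 and Slc25a35 were at 0.02 ± 0.14 and −0.45 ± 0.46 (edgeR adjusted p = 0.929 and 0.4996). Slc25a43 had 0, 4 and 16 counts in MCD and 1, 0 and 4 in MCS libraries, and Slc25a53 had 1, 4 and 10 in MCD and 2, 1 and 2 in MCS libraries.

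**Figure D5:**
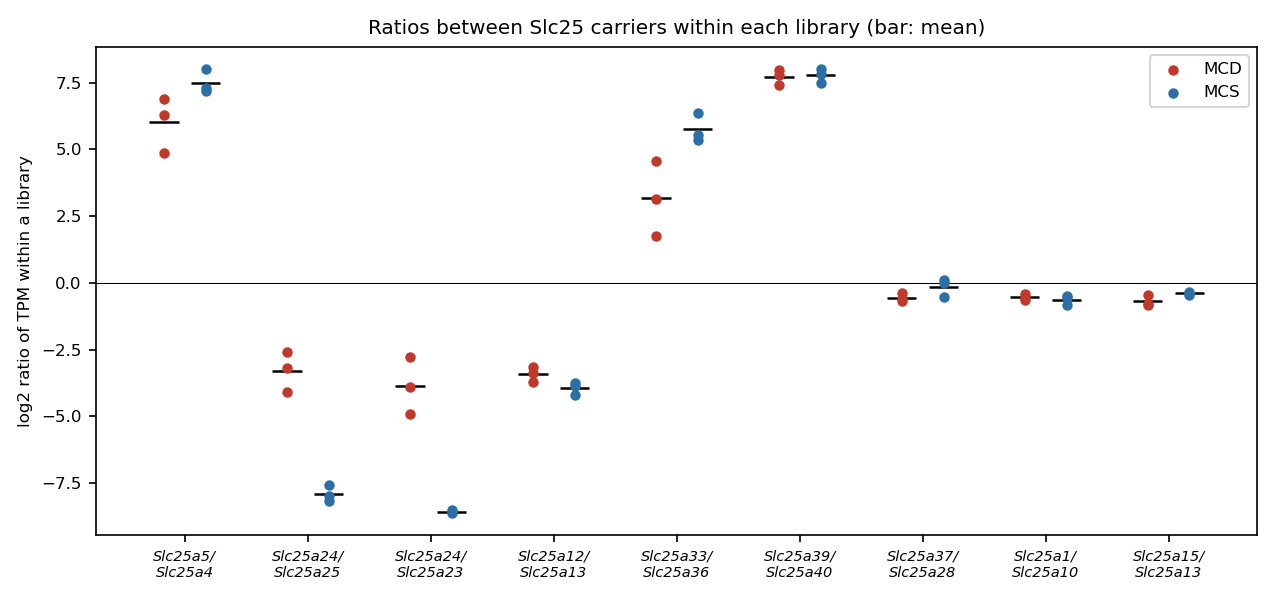
Log2 ratio of the TPM of 2 Slc25 members within each library (vertical axis) for 9 pairs, with 1 point per library, a bar at the mean, and MCD left of MCS. The ratios of Slc25a24 to Slc25a25 and to Slc25a23 stand farthest apart between the diets, by 4.63 and 4.72, while those of Slc25a39 to Slc25a40 and of Slc25a1 to Slc25a10 overlap.

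The 9 ratios were computed as 1 family of tests, and 5 of them did not overlap between the diets. The same count was not made over other gene pairs, so it has no background to be read against. The ratios to Slc25a23 and to Slc25a25 share Slc25a24 and are not separate results. The fifth ratio without overlap, besides those above, was Slc25a33 to Slc25a36. It was 3.17 ± 1.41 (log2) in MCD and 5.75 ± 0.53 in MCS livers, a difference of −2.58. That difference was −1.88 without MCD replicate 3 and −3.29 without MCD replicate 2. Slc25a36 took 10.1%, 4.01% and 22.7% of the pair's TPM in MCD and 2.08%, 1.21% and 2.41% in MCS livers. The ratio of Slc25a15 to Slc25a13, both members of the urea cycle route, differed by −0.30 with overlap (exact permutation p = 0.2). A pair of Slc25a22 and Slc25a18 could not be formed, because Slc25a18 had 0 counts in 5 libraries.

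Replicate 2 was the highest MCD library in CPM for 13 of the 15 members called lower, and for 944 of all 1256 genes called lower (75.2%). It also held the highest hepatocyte marker sum of that group, a sum of which Alb was the largest part. In CPM, 24 of 39 tested members had no overlap between MCD and MCS libraries, as did 45.3% of all tested genes. Of the 15 members called lower, 4 were also lower without overlap in TPM (Slc25a15, Slc25a20, Slc25a23 and Slc25a48), and 2 had a higher mean TPM on MCD (Slc25a11 and Slc25a44). The same counts were not made over all genes called lower, so these have no background to be read against. The part of hepatocyte marker levels in these falls was not tested. Neighbouring members in the mouse genome (RefSeq, GRCm38.p6, within 100 kb) were Slc25a24 with Slc25a54, Slc25a23 with Slc25a41, Slc25a47 with Slc25a29 and Slc25a5 with Slc25a43. Slc25a54 and Slc25a41, beside the genes of the strongest rise and fall, had 0 counts in all libraries.

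In the authors' deposited table, 5 members were higher and 1 lower on MCD at a false discovery rate under 0.05, where 20.5% of all 21899 genes in the authors' deposited table were higher and 1.31% lower. The authors' deposited table lists Slc25a24, Slc25a30, Slc25a4, Slc25a36 and Slc25a5 as higher, with log2 ratios of mean TPM of 4.05, 1.44, 2.40, 2.81 and 0.80. Slc25a23 is the one the authors' deposited table lists as lower, at −0.78 (FDR = 0.00767).

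Other mitochondrial genes give the setting for the carriers. Their counts here and below stand against the shares of all genes called lower and higher. These shares were 9.97% and 14.8% with TMM, 2.76% and 40.4% with library size alone, and 15.9% and 18.2% without MCD replicate 2. Without MCD replicate 1 they were 3.35% and 8.12%, and those of the other fits are given above. Of 79 nuclear genes of the respiratory chain and ATP synthase, 1 fell and 0 rose with TMM (median −0.37), namely Ndufb11 of complex I (−0.84 ± 0.21, edgeR adjusted p = 0.0219). Scaled by library size alone, 0 were lower and 1 higher. Without MCD replicate 2, 37 were called lower, where 15.9% of all genes were. Of 22 protein import genes 3 fell (median −0.27), among them Timm9, a chaperone of the intermembrane space, and Timm17b, a subunit of the inner membrane translocase (−0.83 ± 0.18 and −0.76 ± 0.19, edgeR adjusted p = 0.0127 and 0.0204). Under library size alone, 0 were lower and 4 higher, and Timm17b was at 0.11 on the log2(TPM + 1) scale. Of 77 mitochondrial ribosomal protein genes 8 fell (median −0.30), a share near the 9.97% of all tested genes called lower, with Mrpl15 and Mrpl49 at −0.71 ± 0.16 and −0.70 ± 0.18 (edgeR adjusted p = 0.0138 and 0.0222). There 0 were lower and 12 higher with library size alone, where 40.4% of all genes were higher. Without MCD replicate 2, 7 import genes and 30 ribosomal protein genes were lower, and without MCD replicate 1 both had 0. In those fits 15.9% and 3.35% of all genes were lower, in that order. Ndufb11 and Mrpl49 were called in 2, Timm9 and Timm17b in 3 and Mrpl15 in 4 of the 6 fits without a library.

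Among 17 tested transporters of the inner membrane outside the Slc25a symbols, 3 rose and 1 fell. Of all tested genes 14.8% rose and 9.97% fell. Ucp2, an uncoupling protein abundant in immune cells, is a mitochondrial carrier too but is left out of the members by its symbol. It had 200 ± 61.5 CPM in MCD and 55.6 ± 5.77 CPM in MCS livers (log2 fold change 1.85 ± 0.23, edgeR adjusted p = 0.00136). Sfxn3, a sideroflexin, rose by 2.46 ± 0.38 (edgeR adjusted p = 0.00321). Abcb10, an ABC transporter linked to haem synthesis, fell by 1.14 on the log2 scale (edgeR adjusted p = 0.00368). All 3 kept their calls in each of the 6 fits without a library. Abcb10 was not called on the log2(TPM + 1) or log2(TPM + 0.1) scale (limma adjusted p = 0.0749 and 0.0691), while Ucp2 and Sfxn3 were. The list had 6 genes lower without MCD replicate 2, where 15.9% of all genes were. With library size alone 7 of the list were higher and 1 lower, where 40.4% and 2.76% of all genes were.

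Enzymes that work beside single carriers were read as lists too, against the shares of all genes given above. Of the 4 malate-aspartate shuttle enzymes 1 fell, the aspartate aminotransferase Got1 (−1.14 ± 0.31, edgeR adjusted p = 0.0278), and of the 6 fits without a library it was called only in that without MCD replicate 2. Scaled by library size, 0 were lower and 1 higher. Of 6 urea cycle genes 0 were called, and Cps1, its entry enzyme, was at −0.80 ± 0.29 (edgeR adjusted p = 0.0777). Without MCD replicate 2, 4 of them were lower, where 15.9% of all genes were. Among 11 genes of citrate use and lipid synthesis, the malic enzyme Me1 and the desaturase Scd1 fell (−1.26 ± 0.16 and −2.67 ± 0.63, edgeR adjusted p = 0.00145 and 0.0211) and the isocitrate dehydrogenase Idh2 rose (0.91 ± 0.25, edgeR adjusted p = 0.0304). On library size alone, 2 of that list were lower and 5 higher, where 2.76% and 40.4% of all genes were. Scd1 was called in 2 and Idh2 in 3 of the 6 fits without a library.

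Of 10 genes of mitochondrial one-carbon metabolism 2 rose and 1 fell, where 14.8% and 9.97% of all tested genes did. Mthfd1l and Mthfd2, enzymes of the mitochondrial folate route, rose by 2.11 ± 0.30 and 2.53 ± 0.42 (edgeR adjusted p = 0.00243 and 0.00448), in all 6 fits without a library. Sardh, which degrades sarcosine, had 707 ± 280 CPM in MCD and 1579 ± 320 CPM in MCS livers (−1.16 ± 0.32, edgeR adjusted p = 0.0318), and was called in 2 of those fits. The list had 4 genes lower without MCD replicate 2, 1 without MCD replicate 3 and 0 in the other fits that left out a library. Of all genes, 15.9% were lower without MCD replicate 2 and 8.01% without MCD replicate 3. Scaled by library size alone, 0 of the list were lower and 3 higher, where 2.76% and 40.4% of all genes were. Of 14 haem and iron-sulfur genes 2 fell, where 9.97% of all tested genes did. Among the 2 was Cpox of haem synthesis (−0.70 ± 0.21, edgeR adjusted p = 0.0422). The list had 5 genes lower without MCD replicate 2, where 15.9% of all genes were, and 0 in each other fit that left out a library. Cpox was called only without MCD replicate 2 among the 6 fits without a library, and with library size alone 0 of the list were lower and 2 higher.

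Of 15 transcriptional regulators 2 rose and 2 fell, where 14.8% and 9.97% of all tested genes did. Ppara, the nuclear receptor that drives fatty acid oxidation genes, and Srebf1, which drives lipid synthesis genes, fell by 0.84 and 0.84 on the log2 scale (edgeR adjusted p = 0.00884 and 0.0200). Myc had 20.1 ± 2.65 CPM in MCD and 3.17 ± 0.93 CPM in MCS livers (2.67 ± 0.25, edgeR adjusted p = 0.000427). With library size alone Myc was called, while Ppara (−0.30, edgeR adjusted p = 0.117) and Srebf1 (−0.31, edgeR adjusted p = 0.135) were not. Ppara and Myc were called in all 6 fits without a library and Srebf1 in 3. The list had 1 to 3 genes higher and 1 to 4 lower in those fits, with 4 lower without MCD replicate 2 and 1 higher and 1 lower without MCD replicate 1, MCS replicate 1 or MCS replicate 2. Under library size alone, 0 of the list were lower and 5 higher, where 2.76% and 40.4% of all genes were.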

How the data were processed

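Liver polyA RNA of 6 libraries, 3 per diet, was grouped by the diet in the sample titles. The submitters' processing notes name GRCm39 as build. They list RSEM, StringTie 1.3.1, HISAT2 2.1.0, Bowtie2 2.2.8 and fastp 0.18.0 without saying which did what. In the deposited table the counts are whole, yet in 64 cells TPM exceeds 0 where the count is 0. The deposited values were therefore handled as rounded estimated counts. The TPM values deposited by the authors are scaled to a common total per library, so a shift in a few abundant genes moves all others. The log2 fold changes, p-values and FDR deposited by the authors come from a test not given in the sources used here. Whether strand was kept is not stated in the labels. Processed pseudogenes of abundant carriers such as Slc25a5 can exchange reads with them, which makes their levels less certain.

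Counts of 12599 genes that passed filterByExpr (minimum count 10) were tested with edgeR 4.0.16 in R 4.3.3 (TMM, robust quasi-likelihood fit, diet as the only term), with Benjamini-Hochberg adjustment over all of them. SE was taken as the absolute log2 fold change over the root of the F statistic. Alternatives used limma 3.58.1 and DESeq2 1.42.0. Ratios within libraries used an exact two-sided permutation test. The fit was tested on simulated data. Every pair of replicates differed beyond counting noise (lowest chi-square per degree of freedom 13.7).

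Per-library values were given for members called with a fold above 1.5 and the most abundant of each cargo group. Other members were named after their values were seen. Pathway lists are shown by 2 called genes of lowest p in the main direction and 1 in the other, or else by the most abundant gene. The members and lists were chosen with earlier results of these data known. The numbers shared by replicates of both diets were not used to pair the libraries, and whether they mark pairs is not settled. 1 tested member and 1 gene of a pathway list are not reported here by name, but are included in the counts and medians.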

Additional observations from a re-analysis of the deposited data

How the results depend on the processing

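Of the settings tried on the call counts, size factors of the DESeq2 type, upper-quartile factors, the DESeq2 test, limma-voom, a minimum count of 50, no count filter, and the fit of 2 against 2 libraries without MCD replicate 3 and MCS replicate 3 (chosen after seeing the data) gave 11 to 16 members lower and 2 to 4 higher. Members lower and higher numbered 3 and 7 with library size alone, 2 and 8 on the log2(TPM + 1) scale, 2 and 9 on the log2(TPM + 0.1) scale, and 2 and 1 at adjusted p under 0.01. On the first 3 of these scales the median over all genes was 0.57, 0.53 and 0.65 (log2). Leaving out 1 library gave 3 to 18 lower and 1 to 4 higher. Fold changes below 0 numbered 32 of 39 members with TMM, 17 with library size alone and 14 on each TPM scale. Values follow for results named in the text whose sign turned. Slc25a5 ranged over −0.0304 to 0.354 in the fits that left out a library, and was negative only without MCD replicate 2. On the log2(TPM + 1) and log2(TPM + 0.1) scales Slc25a10 was at 0.11 and 0.11, Slc25a11 at 0.12 and 0.12, Slc25a44 at 0.0939 and 0.0972, Slc25a17 at 0.42 and 0.43, Slc25a39 at 0.38 and 0.38 and Slc25a47 at 0.44 and 0.44. With library size alone Slc25a17, Slc25a39 and Slc25a47 were at 0.31, 0.25 and 0.30. Timm17b was at 0.11 and 0.12 on the 2 TPM scales. With 1 library left out, the log2 ratio of Slc25a39 to Slc25a40 differed between the diets by −0.196 to 0.107, with a positive sign without MCD replicate 3 or MCS replicate 2. That of Slc25a1 to Slc25a10 differed by −0.00989 to 0.147, with a negative sign without MCS replicate 3. The other 7 ratios kept their sign. The cause of these turns was not tested.

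Same-numbered libraries of the 2 diets correlated in their deviations from the group means at 0.06, 0.15 and 0.25, and differently numbered ones at −0.22 to 0.13. Each MCD library correlated best with the MCS library of its own number, if by little for replicates 1 and 2. The numbers were not taken as pairs, and whether they mark pairs is not settled. With the replicate number as a block, 15 members were lower and 4 higher, as were 1296 and 1987 of all 12599 genes, and Slc25a36 was called higher (adjusted p = 0.0433). Depth limits Slc25a27, Slc25a43 and Slc25a53, which had 0 to 16 counts per library and were not tested.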
